A study of Mus musculus with 4 samples.

Results

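The genes described here are 7 genes that define the B cell lineage, Cd79a, Cd79b, Ms4a1, Pax5, Ebf1, Blnk and Cd22, as they were measured in CD8 T cells sorted from mouse spleen and lymph node. They were taken by name, with every probe whose RefSeq accession led to one of them, which gave 10 of the 56605 probes on the array and 7 of the 22911 genes that could be named.

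Total RNA came from 4 subsets of CD8 cells, separated by flow cytometry on CD44, an adhesion receptor raised after antigen encounter, and CD62L, the homing receptor for lymph nodes. P4 was CD44low CD62Llow, the subset the study set out to describe. P3 was CD44high CD62Llow, P2 was CD44high CD62Lhigh and P1 was CD44low CD62Lhigh, as naive T cells are. All 4 subsets came from PD-1-/- C57BL/6 mice aged 1 to 3 months that had received no treatment, so that every value below is from animals without this inhibitory receptor and no wild type was set beside them. Each subset had 1 single-colour array, and no source used here states how many mice were pooled for it. With 1 array a side, differences are sizes without a replicate check, and none could be tested. Since the arrays shared 1 slide, a subset's effect and that of its place on the slide cannot be told apart.

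A B cell is set up by the transcription factors Ebf1 and Pax5, which switch on the genes of the B cell receptor and hold the cell in its lineage. The receptor signals through the paired chains Cd79a and Cd79b, and the adaptor Blnk links the kinase Syk to the enzymes downstream. Ms4a1 encodes the surface protein CD20, and Cd22 encodes a sialic acid binding coreceptor that dampens receptor signals. Mature T cells are not known for these genes as a set, while Blnk is also used by plasmacytoid dendritic cells.

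RefSeq promoters of build GRCm38.p6, each running from 250 bases before the start site to 50 bases after it, were at hand for 5 of the 7 genes. Those of Blnk, which had the largest difference between subsets, and of Cd79a, which was barely detected, are shown with capitals at each match to an octamer (ATGCAAAT or ATTTGCAT), the letters bound by the Oct factors of B cells, and to an ETS core (AGGAAGT or ACTTCCT), the letters bound by factors such as PU.1 and SpiB. Blnk lies on chr19:40994172-40994471, minus strand, and Cd79a on chr7:24897247-24897546, plus strand.
Blnk: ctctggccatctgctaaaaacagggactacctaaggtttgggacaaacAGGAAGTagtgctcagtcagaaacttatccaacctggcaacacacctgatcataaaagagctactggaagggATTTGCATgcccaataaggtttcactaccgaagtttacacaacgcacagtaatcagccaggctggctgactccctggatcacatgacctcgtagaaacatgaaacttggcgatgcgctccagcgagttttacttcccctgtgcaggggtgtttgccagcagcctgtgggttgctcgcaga
Cd79a: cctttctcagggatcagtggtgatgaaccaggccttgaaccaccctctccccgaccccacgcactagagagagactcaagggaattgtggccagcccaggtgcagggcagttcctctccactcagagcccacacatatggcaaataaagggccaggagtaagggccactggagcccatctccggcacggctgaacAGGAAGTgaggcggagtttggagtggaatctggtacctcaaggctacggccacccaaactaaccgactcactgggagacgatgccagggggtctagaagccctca
The Blnk promoter held an octamer whose first base was 130 bases before the start site, on the reverse strand, and an ETS core 202 bases before it. The Cd79a promoter held an ETS core 55 bases before the start. Of all 32851 mouse promoters of this length, 1.74% held the octamer and 9.35% the ETS core on either strand. The EBF1 palindrome CCCNNGGG, present in 13.7% of promoters, was found once among the 5 genes, 48 bases before the start of Cd22. Such matches describe letters and show no binding.

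Levels are given as log2 of the processed signal minus log2 of the array's 75th percentile, so that 0 is the signal of the probe at that percentile. The 75th percentile was 315 in P4, 550 in P3, 332 in P2 and 333 in P1. The scanner software called 28617 probes well above background in P4, 30811 in P3, 27827 in P2 and 28033 in P1, and no spot was saturated. Probes spotted several times on an array gave 1 measure of error. By it, a difference between arrays carried a 95% half-width of 0.18 for levels of 0 or more. The half-width was 0.37 between -3 and 0, and 0.63 below -3. These 2 rest on only 34 and 32 cases of a repeated probe on an array, against 1075 for levels of 0 or more. Only spots well above background were used. The half-widths cover spot noise alone, not the spread between mice or sorts. The scanner software also gives an error for each spot. Combined over a pair of arrays it is called spot error below, which is not a 95% half-width. A probe that was not well above background has no measured level, so a difference from it was computed against the lowest signal called well above background on that array and is written as "at least". These lowest levels were -4.30 in P4, -4.82 in P3, -4.05 in P2 and -4.14 in P1. T cell genes were visible in all subsets: 15 of 15 were well above background on every array, and none was 2-fold apart in any pair. That list also holds Cd4, so it is not particular to CD8 cells. Cd4 stood at 0.13 in P4, 0.76 in P3, 0.15 in P2 and 0.13 in P1. Cd8a stood at 5.46 in P4, 5.60 in P3, 5.30 in P2 and 5.55 in P1, and Cd3e at 6.97, 6.59, 6.66 and 6.87 in the same order.

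Across the 7 genes, P3 had the most that were detected. Well above background, here also called detected, were 4 of 7 in P4, 6 of 7 in P3, 2 of 7 in P2 and 2 of 7 in P1, while of all genes 55.8%, 60.2%, 54.4% and 54.4% passed in the same order. Cd79b and Cd22 were detected on every array, Blnk and Ms4a1 in P4 and P3, Cd79a and Ebf1 in P3 alone, and Pax5 on none. Of all genes, 4.11% were detected in P3 alone. Since Cd79a and Ebf1 entered the comparisons only through P3, their direction was set by that filter. Blnk and Ms4a1 likewise entered P3 minus P2 and P3 minus P1 through P3 alone, and P4 minus P2 and P4 minus P1 through P4 alone.

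**Figure D1:**
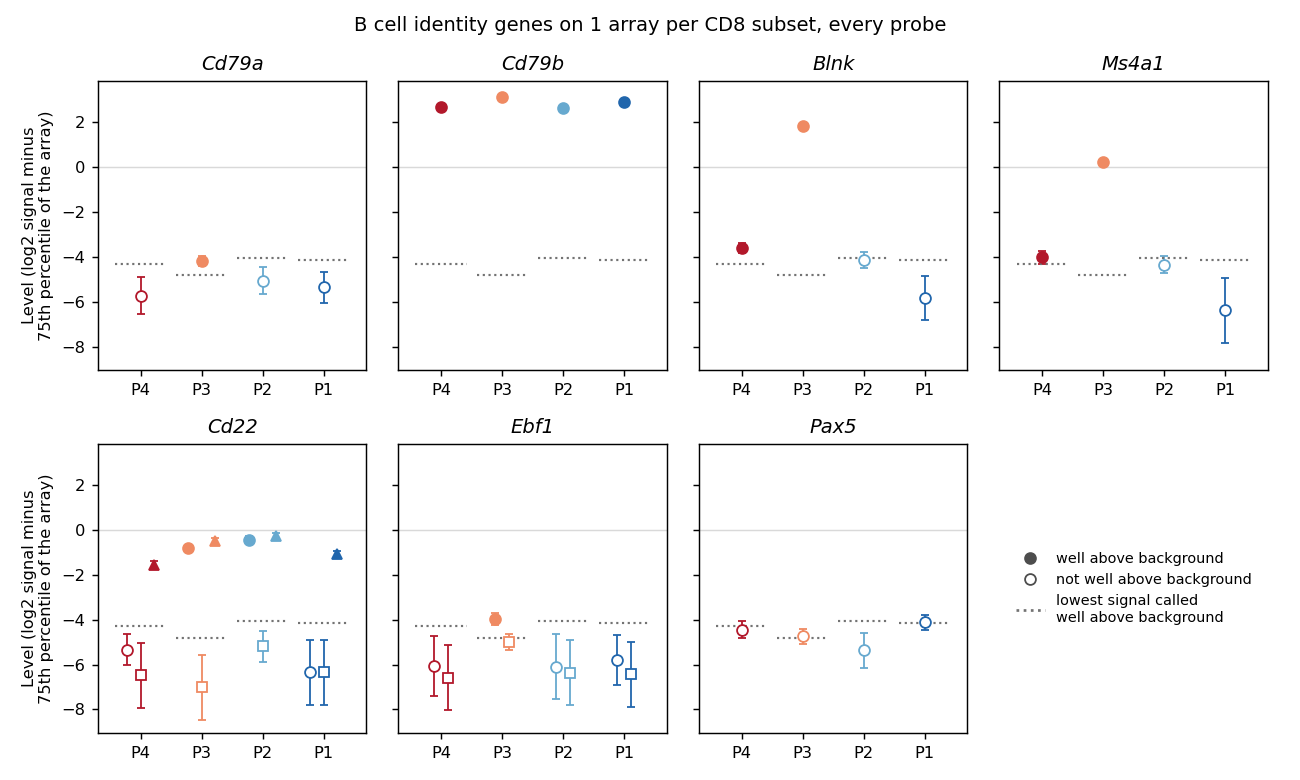
Level of each B cell identity gene in P4, P3, P2 and P1, 1 array per subset, in log2 of the processed signal minus log2 of the array's 75th percentile. Marker shapes tell the probes of a gene apart, bars are the scanner software's error of the spot, filled symbols are well above background, open ones are not, and dotted lines mark the lowest signal so called. Blnk and Ms4a1 stand high in P3 only, Cd79b is even across the subsets, and Cd79a, Ebf1 and Pax5 lie near the dotted lines.

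Cd79b, the signalling chain that pairs with Cd79a, was the most even of the 4 genes that could be compared between P4 and P3 on measured values, which are Cd79b, Cd22, Blnk and Ms4a1. Its processed signal was 1986 ± 199 in P4, 4722 ± 472 in P3, 2073 ± 207 in P2 and 2476 ± 248 in P1, where the error is the scanner software's own for the spot. Scaled to the array, the levels were 2.66 in P4, 3.10 in P3, 2.64 in P2 and 2.89 in P1, closer together than the raw signals, with P3 still the highest. No pair of subsets was 2-fold apart. The widest difference was 0.46 log2 for P3 minus P2, beyond the spot half-width of 0.18, with a spot error of 0.20. P4 minus P2 was 0.01, within that half-width.

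Cd79a, the partner chain, was at the edge of detection. Its signal was 5.97 ± 3.37 in P4, 30.3 ± 5.02 in P3, 9.98 ± 4.17 in P2 and 8.17 ± 3.94 in P1, and P3 alone was well above background. The P3 level of -4.18 lay below the lowest level the P2 and P1 arrays could call, so no fold over those subsets can be given. Against P3, P4 was at least 1.08-fold lower, a bound within spot noise. The 2 chains of the receptor complex thus had different records on these arrays: 1 was detected in every subset and the other in 1.

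Blnk, the adaptor downstream of the receptor, showed the widest difference of the 7 genes. Its signal was 26.1 ± 4.17 in P4, 1963 ± 196 in P3, 18.9 ± 4.53 in P2 and 5.82 ± 3.91 in P1. P3 stood far above the others, P4 was just above background, and P2 and P1 were not well above it. On the scaled values P4 was 43.0-fold lower than P3, a difference of -5.43 log2 with a spot error of 0.27. With another background correction, normexp with an offset of 50, the P4 minus P3 difference was -3.86 log2. P3 was at least 59.2-fold higher than P2 and at least 62.8-fold higher than P1. P4 was at least 1.38-fold higher than P2 and at least 1.46-fold higher than P1, bounds of 0.46 and 0.55 log2 that lie within the half-width of 0.63 for such dim spots.

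Ms4a1, the CD20 gene, followed the same order. It gave 19.4 ± 3.97 in P4, 643 ± 64.4 in P3, 16.4 ± 4.50 in P2 and 3.99 ± 4.01 in P1. P3 was again the only subset with a strong signal, P4 was at the limit of detection, and P2 and P1 did not reach it. P4 was 18.9-fold lower than P3 (-4.24 log2, spot error 0.33). With normexp it was -2.42 log2. P3 was at least 19.4-fold higher than P2 and at least 20.6-fold higher than P1. The bounds for P4 over P2 and P1 were 0.03 and 0.12 log2, within spot noise.

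These 2 genes stood at the far end of the comparison of P4 with P3. Of 12565 genes measured on both arrays, 17 had a P4 minus P3 difference as low as that of Blnk or lower, itself included, and 39 one as low as that of Ms4a1 or lower. For Cd79b, at -0.45, the count was 1992.

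Cd22, the inhibitory coreceptor, had its own pattern, in which P2 joined P3 at the high end. The probe that represents the gene gave 107 ± 11.4 in P4, 386 ± 38.9 in P3, 271 ± 27.4 in P2 and 158 ± 16.3 in P1, well above background in each. The levels were -1.55 in P4, -0.51 in P3, -0.30 in P2 and -1.08 in P1. By this probe P4 was the lowest subset, 2.39-fold below P2 (-1.26 log2) and 2.06-fold below P3 (-1.04 log2), both beyond the half-width of 0.37. With normexp the P4 minus P3 difference was -0.76 log2, under 2-fold. P4 minus P1 was -0.48 and P3 minus P1 was 0.57, under 2-fold, and P3 minus P2 was -0.21, within spot noise.

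A second Cd22 probe had the same split with a wider gap. It was not well above background in P4, at a signal of 7.73, nor in P1, at 4.08, while P3 gave 313 and P2 gave 244. By this probe P4 was at least 11.2-fold lower than P3 and at least 14.4-fold lower than P2. Over P1, the bounds were 3.32 log2 for P3 and 3.69 log2 for P2. With the first probe P2 minus P1 was 0.78, and neither difference from P1 reached 2-fold, so for P3 and P2 against P1 the size of the Cd22 difference depended on the probe. Averaged over its probes, Cd22 gave -1.68 log2 for P4 minus P3 and -2.49 log2 for P4 minus P2, while P4 minus P1 turned to 0.13. Signals not well above background entered these averages as they stood, so the averaged differences are not measured sizes. A further probe was not well above background on any array. The first probe answers to another RefSeq transcript record than the other 2, and no source used here places them along the gene.

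Ebf1, the factor that starts the B cell programme, gave a signal of 4.67 ± 4.32 in P4, 35.1 ± 6.03 in P3, 4.88 ± 4.91 in P2 and 5.98 ± 4.60 in P1 with its brighter probe. P3 alone was well above background, and a second probe was above it on no array. P4 was at least 1.25-fold lower than P3, and P3 was at least 1.06-fold higher than P2 and at least 1.12-fold higher than P1, all within spot noise. Pax5, which holds cells in the B lineage, gave 14.4 ± 3.77 in P4, 20.4 ± 4.66 in P3, 8.10 ± 4.35 in P2 and 19.1 ± 4.44 in P1. None of these was well above background and no order can be read from them. Neither lineage factor thus had a level that could be compared between subsets.

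Counted by size, P3 differed from the other subsets in few of the 7 genes but by a wide margin. In P3 minus P1, 2 of the 7 passed 2-fold upward, Blnk and Ms4a1, with 6 measured on either array, as did 12.5% of all measured genes. The same 2 genes passed it in P3 minus P2, where the share of all genes was 10.6%. They were also the only 2 of the 7 to lie at least 2-fold above each of the other subsets in P3, a class with 6.71% of all genes. None was 2-fold lower in P3 than in P1 or P2, where 6.98% and 5.61% of all genes were. With so few genes, 2 of 7 is a description and not a share to set firmly against these.

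P4 was at least 2-fold lower than P3 in 3 of the 7, Blnk, Ms4a1 and Cd22, with 6 measured. Of all measured genes, 9.07% were. None of the 7 was 2-fold higher, against 3.98% of all measured genes. With normexp the count of lower genes was 2, since Cd22 no longer reached 2-fold. In P4 minus P2, Cd22 was the 1 gene at least 2-fold lower, where 3.45% of all genes were, and none was higher, where 4.78% were. In P4 minus P1 none of the 7 was 2-fold apart, 4 having been measured, while 5.43% of all genes were higher and 1.77% lower. In P2 minus P1 none was apart by the probes that represent the genes, 2 having been measured, while 4.76% of all genes were higher and 2.52% lower. The comparisons share arrays, since each subset enters 3 of the 6 pairs.

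**Figure D2:**
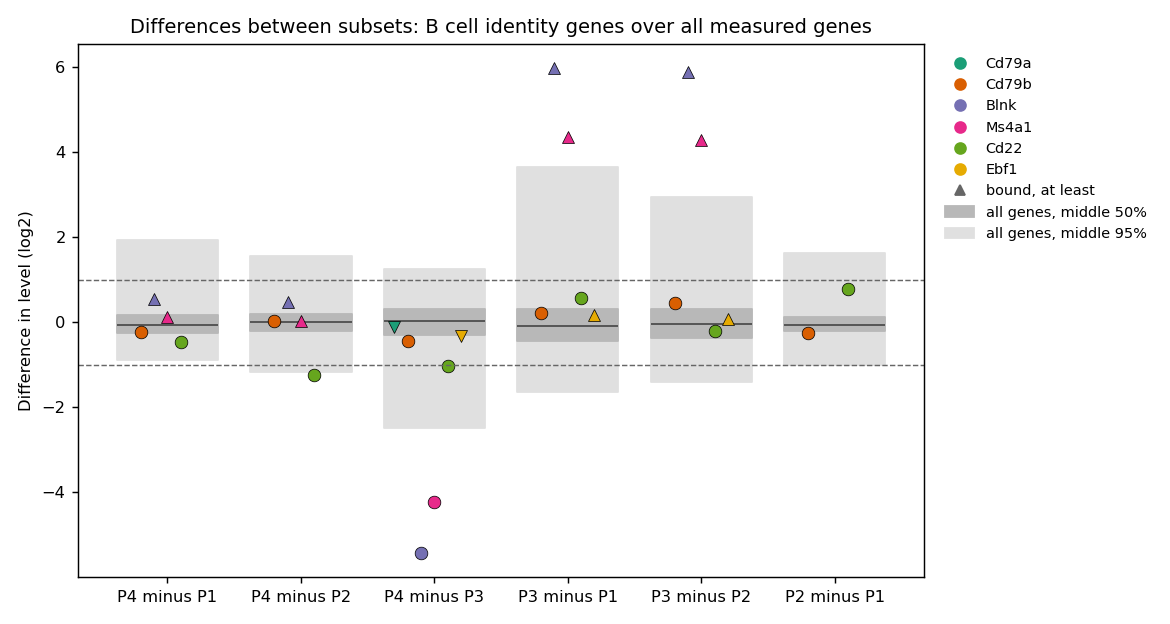
Difference in level (log2) of each measured B cell identity gene for the 6 pairs of subsets, over all measured genes. Circles are measured on both arrays, triangles are bounds, light and dark grey cover the middle 95% and 50% of all genes, and dashed lines mark 2-fold. Blnk and Ms4a1 lie outside the middle 95% in the 3 pairs that involve P3, and Cd22 lies below it in P4 minus P2.

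A wider set of 46 B cell genes beyond the 7, in lists of receptor signalling, transcription factors and other surface or secreted genes, was read in the same way. Well above background were 38 of 46 in P4, 45 in P3, 35 in P2 and 29 in P1, beside 55.8%, 60.2%, 54.4% and 54.4% of all genes. In P3 minus P1, 30 of the 46 were at least 2-fold higher and 3 lower, with a median of 2.10 over 45 measured. Btk, Tcf4 and Tnfrsf13c count as higher, but the differences of their probes, bounds included, disagreed in sign. Of all measured genes, 12.5% were higher and 6.98% lower, with a median of -0.10. The same shares belong beside each P3 minus P1 count of the lists below. In P4 minus P3, 3 were higher and 26 lower, with a median of -1.76, while 3.98% of all genes were higher and 9.07% lower, with a median of 0.02. In P4 minus P1, 11 were higher and 0 lower, with a median of 0.36 over 38 measured. The shares of all genes there were 5.43% and 1.77%, with a median of -0.07. Many of these differences rest on genes below background in 1 of the subsets. With genes above background on both arrays alone, 14 were higher in P3 than in P1, where P1 had 29 of the 46 detected. Among all genes under that filter, 973 of 12150 were higher. Among the 42 genes that stand in no list of another cell type used here, 26 were higher in P3 than in P1 and 10 in P4 than in P1. These 42 are not all restricted to B cells, since Irf8, also a factor of dendritic cells, is among them.

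Among the partners of the receptor, Cr2, a complement receptor of B cells, stood at -3.06 in P4, -0.55 in P3, -2.69 in P2 and -3.07 in P1. P4 was 2.51 log2 below P3, and P3 alone was high. Syk, the kinase that Blnk serves, was at least 4.67 log2 higher in P3 than in P1 and 4.11 lower in P4 than in P3. Fcrla, an Fc receptor-like protein of B cells, was well above background in P3 alone, at least 4.14 log2 over P1. Blk, a B cell kinase of the Src family, was detected on no array, and Bank1, a B cell scaffold protein, differed by 0.04 between P3 and P1. Cd72, an inhibitory coreceptor of B cells, ran the other way and was 1.89 log2 lower in P3 than in P1. In all, 12 of the 18 genes of this list were higher in P3 than in P1 and 1 was lower.

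Of the 12 transcription factors, 7 were higher in P3 than in P1 and 1, Bach2, a repressor that restrains plasma cell and effector differentiation, was lower by 1.64 log2. Spib, an ETS factor of B cells and plasmacytoid dendritic cells, had levels of -3.51 in P4 and 1.45 in P3 and was not well above background in P2 or P1. P4 was 4.95 log2 lower than P3. Irf8, a factor of B cells and dendritic cells, stood at 3.18 in P4, 4.90 in P3, 2.21 in P2 and 1.17 in P1, so that P4 was 2.01 log2 above P1. In Pou2af1, the Oct coactivator of B cells, P4 was highest at 2.68, against 2.10 in P3, 2.26 in P2 and 1.24 in P1. Tcf3, the E protein that acts before Ebf1, stood at 2.36 in P3 and 2.35 in P1.

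Among the 16 other surface and secreted genes, 11 were higher in P3 than in P1 and 1, Ralgps2, was lower. Ly6d, a surface marker of B cell and plasmacytoid progenitors, was 4.55 log2 higher in P3 than in P1. Fcmr, the Fc receptor for IgM, was at least 4.05 log2 higher in P3 than in P1 and at least 1.83 in P4 than in P1. Cxcr5, the receptor that guides cells into follicles, had levels of 0.55 in P4, 2.57 in P3, 2.74 in P2 and -0.93 in P1 so that P2 and P3 were both high, as for Cd22. Cd40 gave a level of 6.76 in P2, on a spot in a locally bright area of that array. No spot of the 7 genes lay in such an area.

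**Figure D3:**
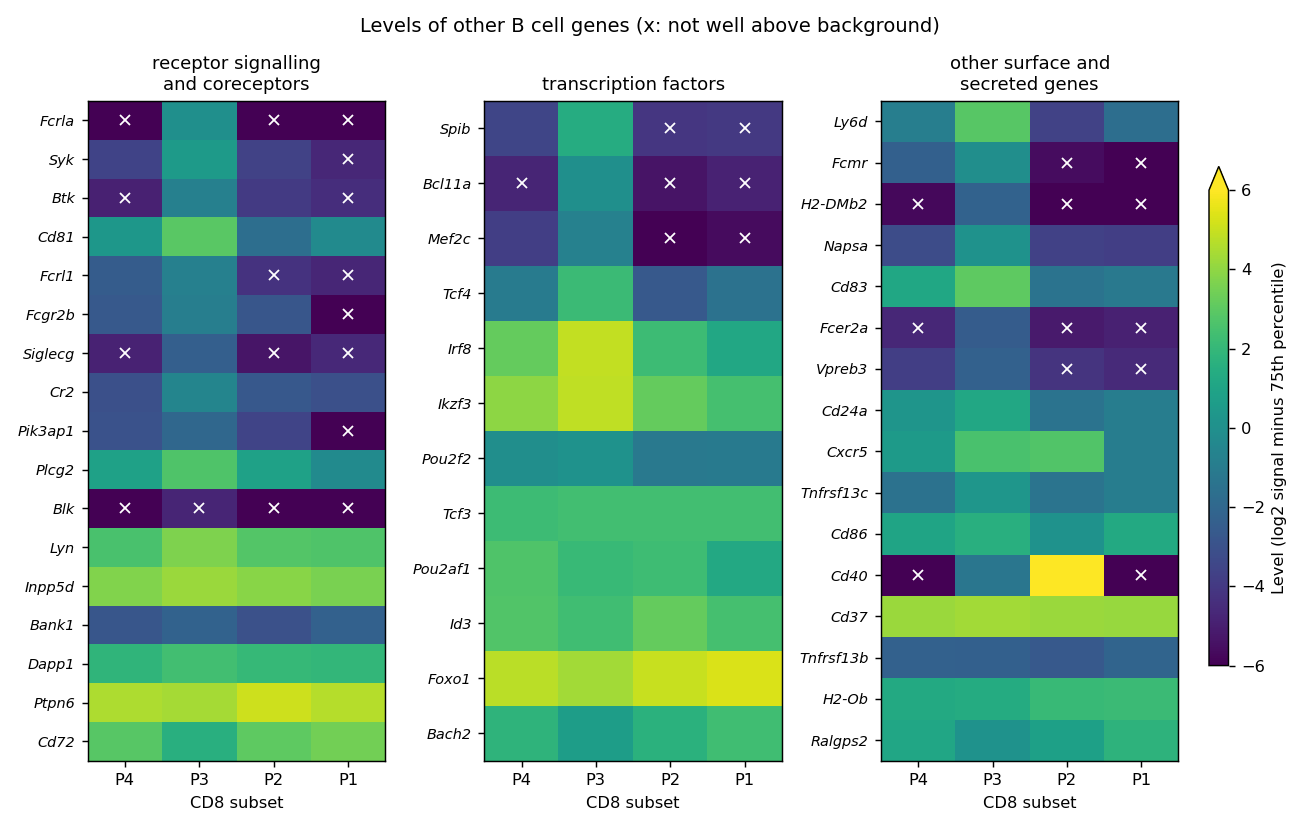
Levels of 45 of the 46 other B cell genes in P4, P3, P2 and P1 (colour, log2 of the processed signal minus log2 of the array's 75th percentile; crosses mark genes not well above background), ordered by the level in P3 minus the mean of the other subsets. The upper rows of each panel are bright in P3 and dark or crossed elsewhere, as Fcrla and Spib are.

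Plasma cell genes, which mark antibody secreting cells, moved in part with Blnk and Ms4a1. In P3 minus P1, 5 of 10 genes were 2-fold higher or more, 8 having been measured. Jchain, the joining chain of secreted IgM and IgA, had levels of -4.17 in P4, 1.58 in P3 and -3.85 in P2 and was not well above background in P1. P4 was 5.75 log2 lower than P3. Tnfrsf17 and Fkbp11 were detected on no array. Among genes of B cell precursors, Rag1, Rag2 and Igll1 were detected on no array, while Dntt, Vpreb1, Il7r and Lef1 were detected on every array. In P3 minus P1, 2 of the 9 genes of this list, Flt3 and Cd93, were higher, and Lef1, a factor that T cells also use, was lower, with a difference of -2.26 log2.

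Genes of other cell types also stood higher in P3, so the B cell genes did not move alone. The summed level of a list is the sum over its genes of the signal divided by the array's 75th percentile. For the 7 B cell identity genes it was 6.82 in P4, 14.1 in P3, 7.21 in P2 and 7.98 in P1. Most of it on each array came from Cd79b, at log2 levels of 2.66, 3.10, 2.64 and 2.89. The sums are not on the log2 scale, so single levels are not direct parts of them. For 7 class II presentation genes it was 17.8 in P4, 245 in P3, 13.9 in P2 and 15.3 in P1, and 5 of 7 were higher in P3 than in P1. H2-Aa, a class II chain shared by B cells and dendritic cells, was at least 7.93 log2 higher in P3 than in P1.

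In P3 minus P1, 9 of 12 conventional dendritic cell genes were higher, with Clec9a at least 5.23 log2 and Flt3 at least 6.35 log2 apart. Itgae was the 1 gene of the list that was lower, with a difference of -1.01 log2. Xcr1 was at least 0.88 log2 higher, a bound under 2-fold. The summed level of that list was 187 in P4, 223 in P3, 169 in P2 and 167 in P1. Most of it came from Mgl2, at log2 levels of 7.39, 7.53, 7.36 and 7.23. Of 10 plasmacytoid dendritic cell genes, a list that itself holds Blnk, Spib, Ly6d and Tcf4, 7 were higher, and its summed level was 113 in P4, 80.1 in P3, 99.7 in P2 and 116 in P1. Siglech, a defining marker of that cell, was lower by 1.24 log2 with the probe that represents it, but its probes disagreed in direction. Those of Tcf4, counted as higher, also disagreed. Siglech had log2 levels of 6.15 in P4, 4.88 in P3, 6.30 in P2 and 6.12 in P1. It was the largest part of that sum on each array. Ccr9, a homing receptor also carried by T cells, was lower in P3 than in P1, with a difference of -2.43 log2.

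Of 13 macrophage genes, 9 were higher, with a summed level of 4.14 in P4, 13.6 in P3, 5.18 in P2 and 3.60 in P1, and Fcgr1 and Cd163 were detected on no array. Of 10 natural killer genes, many of which activated CD8 cells also use, 8 were higher in P3 than in P1 and 7 in P4 than in P1. Their summed level was 199 in P4, 227 in P3, 40.8 in P2 and 8.94 in P1. Gzma, at log2 levels of 7.44 in P4 and 7.33 in P3, was the largest part of that sum in both. Ncr1, the defining marker of natural killer cells, was detected on no array. Hba-a1, a haemoglobin chain, was 5.08 log2 higher in P3 than in P1, while Alas2, a haem synthesis enzyme of red cell precursors, was detected on no array. The part of such cells in the values of Blnk, Ms4a1 and the other B cell genes was not tested. In bulk RNA, fewer cells of a type and less RNA per cell cannot be told apart.

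**Figure D4:**
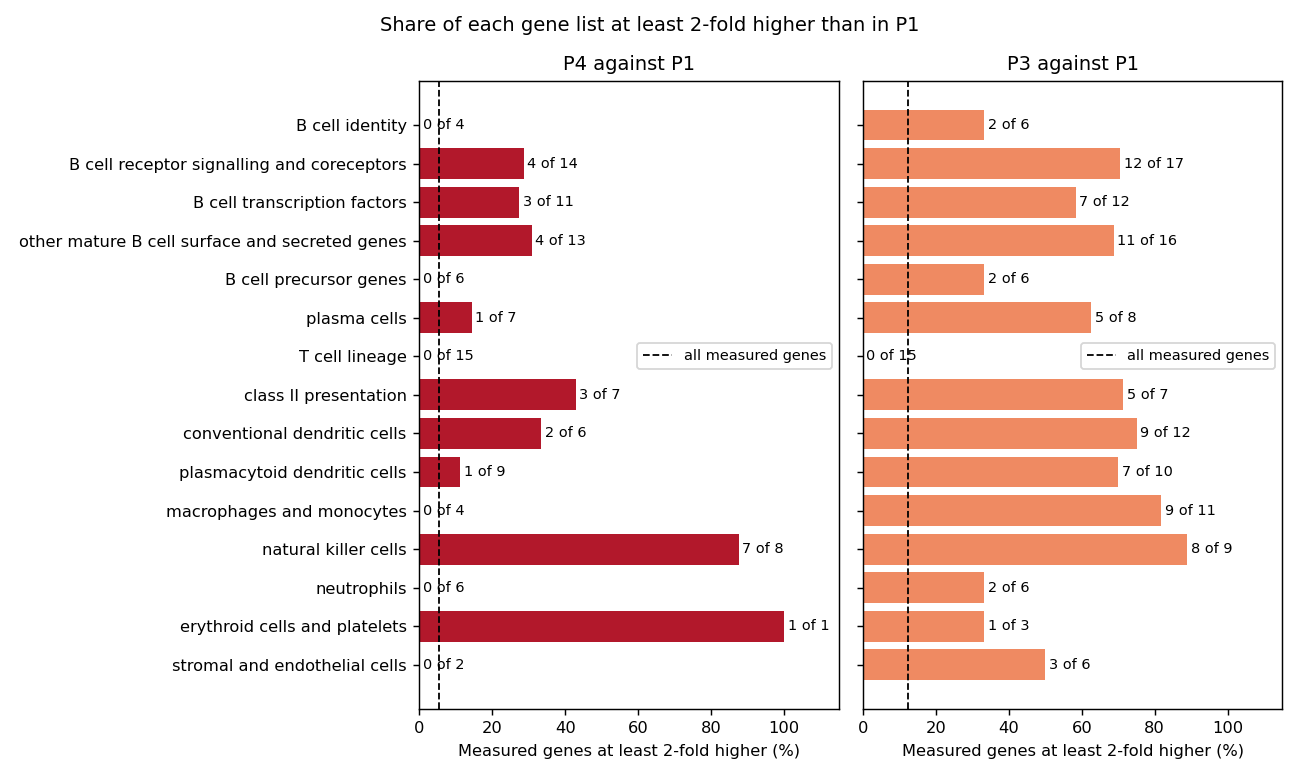
Percentage of each list's measured genes with a 2-fold or larger rise over P1 in P4 (left) and in P3 (right), with counts beside the bars and the share of all measured genes dashed, 5.43% and 12.5%. In P3 every list but that of T cells passes the dashed line, some of them with few measured genes; in P4 the 7 identity genes count 0 of 4.

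The genes whose levels over the 4 arrays were most like those of a member were found by the root mean square distance between profiles centred on their own mean, among 14358 other genes. For Blnk they were Anpep, an aminopeptidase of myeloid cells, at 0.14, Il4i1, an amino acid oxidase, at 0.15, and Flt3, the receptor of dendritic cell progenitors, at 0.16, and 34 genes lay within 0.5. For Ms4a1 they were Papss2 at 0.06, Gm14548 at 0.08 and Insm1 at 0.09, and 125 lay within 0.5. The nearest to Cd22 were Errfi1 at 0.06, Lhpp at 0.07 and Iqgap2 at 0.07, with 4339 within 0.5, and the nearest to Cd79b were H4c12, H4c14 and Papss1 at 0.01, with 11095. A profile over 4 arrays is shared by many genes, and those of Cd79a and Ebf1 are set by the lowest callable levels. Blnk and Ms4a1 also stood at such levels in P2 and P1. Anpep, Papss2, Gm14548 and Insm1 were not well above background there either, so likeness on those arrays was not measured.

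The authors' own value table held 2 of the 10 probes, since it lists probes detected on every array. In the authors' deposited table, Cd79b had log2 values of 11.2 in P4, 11.7 in P3, 11.2 in P2 and 11.4 in P1. For Cd22 the authors' deposited table gave 6.95 in P4, 8.08 in P3, 8.23 in P2 and 7.43 in P1, the order found above. Blnk and Ms4a1, with the widest differences here, were outside it.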

How the data were processed

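Cy3-labelled RNA of 4 sorted subsets was hybridised to 1 Agilent single-colour array each. Per the file headers, the authors extracted spot intensity with Agilent Feature Extraction 11.0.1.1, giving a signal freed of background but not yet scaled between arrays. The authors' deposited table gives log2 values for 26188 probes, every column having its median at 8.85. Its columns correlated with the log2 processed signal of their arrays at 0.999 or more, and the tool behind it is not given in the sources.

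Control and outlier spots were left out, repeated spots were averaged, and log2 values were centred on each array's 75th percentile. RefSeq accessions named 32994 probes (58.3%), from a gene table of assembly GRCm38.p6, and the coordinates of the array design, made on another build, were not used. The probe with the highest mean stood for its gene. A pair took in the genes well above background on either of its arrays. Values not well above background were raised to the lowest such signal on that array. Counts of genes use a size of 2-fold or more. The counting steps were checked on simulated data, with known changes added to genes above background on every array. That check does not cover the noise of dim spots.

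The planned normexp correction used median signals, since no mean signal was at hand. The genes named were the 7 members, their 3 nearest genes and list genes. Some list genes are counted but not reported singly here. The members and lists were chosen with earlier results of these data known. Python 3.11.15, numpy 2.4.6, pandas 2.3.3, R 4.3.3 and limma 3.58.1 were used.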

Additional observations from a re-analysis of the deposited data

How the results depend on the processing

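Among 11 other settings, no difference of 2-fold or more of Blnk, Ms4a1 or Cd22 changed direction in those that gave it a value; the 46 other genes were followed by counts alone. No paired analysis was possible because each subset has 1 array, and for the same reason no array could be left out. Of the 7 genes, the counts moved as follows. Without filter or floor, which gives noise a direction, 4 were higher in P3 than in P1 (2 before), 2 in P4 than in P1 (0 before) and 2 in P2 than in P1 (0 before), while 5 were lower in P4 than in P3 (3 before) and 1 in P2 than in P1 (0 before). With genes above background on both arrays alone, 0 were higher in P3 than in P1 or P2, and the authors' table, which lacks Blnk and Ms4a1, also gave 0 and 0, with 1 lower in P4 than in P3. Averaging a gene's probes gave 1 higher in P2 than in P1, as did scaling to T cell genes. At 4-fold, 0 were lower in P4 than in P2. With normexp, 2 were lower in P4 than in P3, Cd22 falling to -0.76 log2. Blnk was at least 5.97 log2 higher in P3 than in P1, and 4.21 with normexp. Ms4a1 was at least 4.36 higher, and 2.75 with normexp. Averaged over probes, Cd22 gave 2.62 log2 for P2 minus P1 and 1.81 for P3 minus P1, and P4 minus P1 turned to 0.13 (-0.48 before). These averages include signals not well above background as they stood, so they are not measured sizes.

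Of the 46 other B cell genes, the authors' table gave 14 higher in P3 than in P1 (30 before) and 13 than in P2 (28 before), 11 lower in P4 than in P3 (26 before), 1 lower in P4 than in P2 (2 before) and 1 lower in P3 than in P2 (2 before). Genes above background on both arrays gave 14 and 18 higher in P3 than in P1 and P2, 7 higher in P4 than in P1 (11 before) and 1 lower in P4 than in P2. At 4-fold, 2 were higher in P4 than in P1, 3 in P4 than in P2 (8 before), 0 in P4 than in P3 (3 before), 17 in P3 than in P2 and 2 in P2 than in P1 (6 before), and 16 were lower in P4 than in P3, 0 in P3 than in P1 (3 before), 1 in P3 than in P2 and 0 in P2 than in P1 (4 before). With normexp, 5 were higher in P4 than in P1, 4 in P4 than in P2 and 3 in P2 than in P1, and 1 was lower in P2 than in P1. Averaging probes gave 1 lower in P4 than in P1 (0 before) and 4 lower in P4 than in P2. Without locally bright areas, 1 was lower in P4 than in P2 and 1 in P3 than in P2. Scaling to T cell genes, chosen after seeing the data, moved the median of all genes in P3 minus P1 to 0.20 (-0.10 before) and in P2 minus P1 to 0.21 (-0.06 before), and gave 1 higher in P4 than in P3 and 2 lower in P2 than in P1. Where fewer genes were tested, as in the authors' table, the smaller counts follow from that. At 4-fold, counts can only stay or fall, since the cut is stricter. For the other settings the cause was not tested. Signal over background limits Cd79a, Ebf1 and Pax5, whose differences could not be sized.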
